A study of Mus musculus with 4 samples.

Results

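The microRNA (miRNA) families miR-297, miR-466, miR-467 and miR-669 were measured in the synovium (joint lining) of mice before and at the peak of serum transfer arthritis. An assay counted as a member where its name, after the species prefix, began with 1 of these 4 family names, star (passenger) strands being left out. This gave 31 of 750 miRNA assays, of which 2 were named for miR-297, 10 for miR-466, 9 for miR-467 and 10 for miR-669. Mouse miRNAs gave 29 of the names and rat miRNAs 2. All mice were C57BL/6J, and synovium was taken around the ankle (tibiotalar) joint. The 2 non-arthritic pools were taken at day 0 from 3 mice each, and the 2 arthritic pools at day 10 after serum from arthritic K/BxN mice, from 10 mice each. The study's design text calls the pools biological replicates, the labels used here give neither sex nor age, and pooling hides the spread between animals. Each pool was read in 2 technical wells, so that each group rests on 2 values.

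miRNAs are short RNAs that guide repression of messenger RNAs through their seed, bases 2 to 8 of the mature strand. Most genes of these 4 families lie in a rodent cluster inside an intron of Sfmbt2, a gene for a Polycomb-group protein. The host gene is imprinted, expressed from the paternal copy and best known in the placenta, where the cluster's miRNAs are abundant. The families arose by repeated duplication, and many mature strands are rich in alternating bases and differ from each other by few of them. Reads of an assay in these families may therefore include close relatives, and how well these assays tell them apart was not tested.

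RefSeq (assembly GRCm38.p6) lists 82 miRNA genes of the 4 families, and 72 of them lie within the span of Sfmbt2, where they are the only miRNA genes. In the span 5 belong to miR-297, 24 to miR-466, 14 to miR-467 and 29 to miR-669. Neighbouring genes are separated by a median of 209 bases. Of the 31 assays, 28 were matched to a mouse gene by name, and 23 of these have a gene in the span. The miR-467a assays match 10 genes there and the miR-669a assay 12, so that their values cannot be given to a single gene. For 5 assays, miR-466J, miR-466k, miR-467F, miR-467H and miR-669n, the gene lies on another chromosome, so they belong to the families by name and not to the Sfmbt2 cluster. The remaining 3, both rat-named assays and miR-466a-3p, were not matched.

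The RefSeq table (GRCm38.p6) holds a mature strand for the 5 assays with genes outside Sfmbt2. These strands are shown 5′ to 3′ with the seed in capitals to make the families' repetitive sequence visible. RefSeq writes in lower case the letters that the panels capitalise.
miR-467h: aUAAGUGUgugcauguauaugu
miR-466j: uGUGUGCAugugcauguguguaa
miR-466k: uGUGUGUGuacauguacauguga
miR-669n: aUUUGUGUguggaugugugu
miR-467f: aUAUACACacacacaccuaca
miR-467h, at chr9:115381898-115381919 on the plus strand, is the member of this set that gave a Ct, in a single well. miR-466j lies at chr10:60960802-60960824, miR-466k at chr3:85467396-85467418 and miR-669n at chr3:115979905-115979924, all on the plus strand, and miR-467f at chr11:69635419-69635439 on the minus strand. Of the 5 strands, 4 hold the run UGUGU on the strand shown, against 3.63% of the 1679 mature mouse miRNAs in the table. The run was set by hand and the 1679 include these strands, so the shares are a description and not a test. miR-467f runs instead on A and C and has 14.3% G or U, while the other 4 have from 68.2% to 90%. The 5 seeds all differ, although miR-467f and miR-467h share a family number and miR-466j and miR-466k another. In the table the seed UAAGUGU of miR-467h also occurs in miR-668-5p, and the other 4 seeds occur in no further miRNA listed there. No mature strand was taken for the other 26 member assays, so whether they share these seeds was not tested.

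**Figure D1:**
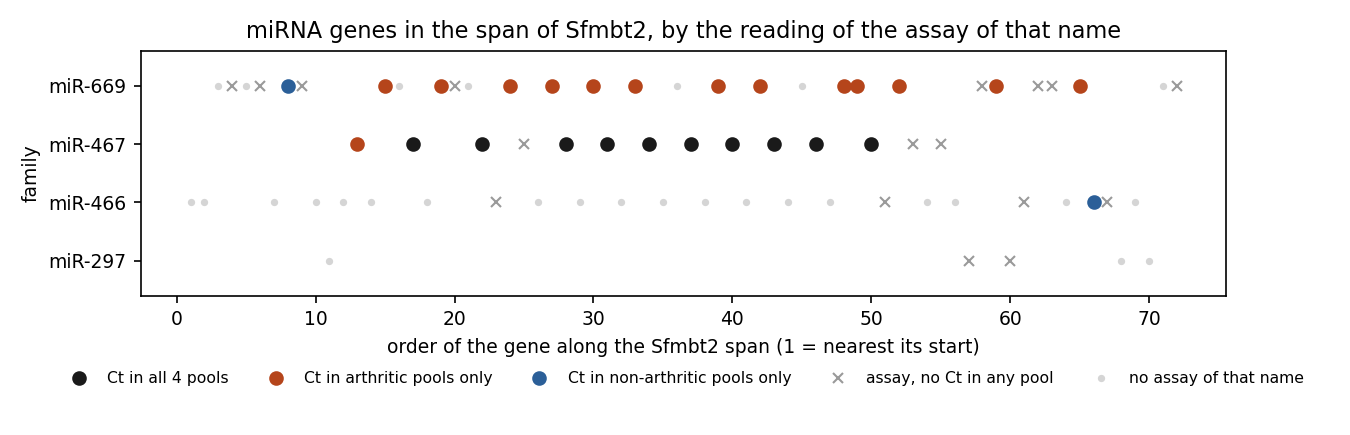
The 72 miRNA genes in the span of Sfmbt2 in their order along it (horizontal axis, order number), by family (vertical axis) and by the reading of the assay of that name. The 10 black miR-467a points share 1 assay (panel A), and the 12 miR-669a points share 1 assay with a Ct in a single well.

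Most members gave no signal. The Ct of an assay is the amplification cycle that brings its signal to a set threshold, and a lower Ct means more RNA. Per the notes deposited with the values, a single copy reads at a Ct of about 26 to 27 on this nanolitre system. A Ct in at least 1 pool was recorded for 8 of 31 members, 25.8% against 43.3% of all assays. In all 4 pools it was recorded for 1 member, 3.23% against 27.9% of all assays. The remaining 23 members, 74.2% against 56.7%, had none in any well. Of the 248 member wells 21 had a Ct, and 8 of these belonged to the panel A assay of miR-467a. By panel, 3 of 11 members on panel A and 5 of 20 on panel B gave a Ct in some pool, against 191 of 375 and 134 of 375 assays in all.

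Across the pools, members with a Ct numbered 4 for non-arthritic pool 1 and 2 for non-arthritic pool 2. For arthritic pool 1 they numbered 5, and for arthritic pool 2 they numbered 2. The higher count in each group belonged to pool 1, and the groups overlapped. Over all assays the counts were 294 and 287 at day 0 and 271 and 223 at day 10. Members read in arthritic pools alone were 4 of 31, and members read in non-arthritic pools alone were 3 of 31. Over all assays these shares were 2.53% and 6.27%.

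**Figure D2:**
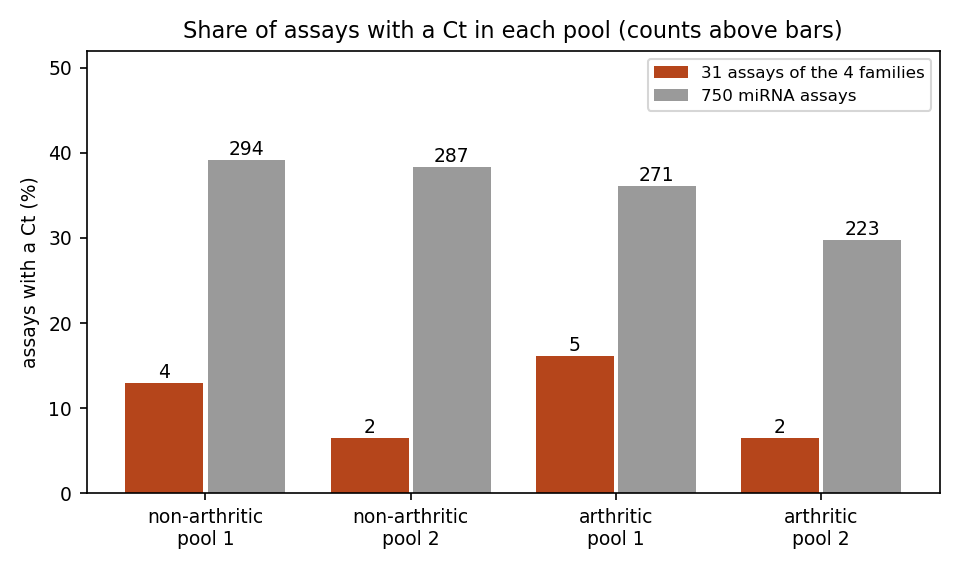
Percent of assays with a Ct in at least 1 well (vertical axis) in each pool (horizontal axis), for the 31 assays of the 4 families and for all 750 miRNA assays. The bars of the families run from 6.45% to 16.1%, and those of all assays from 29.7% to 39.2%.

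Readings near a single copy were often not repeated in the second well. Over all miRNA assays, 9 of 718 pairs of assay and pool with a mean Ct under 20 had a Ct in 1 well alone. For a Ct from 26 to 27 these were 44 of 55. The members gave 13 such pairs, of which 5 were read in a single well. All 5 had a Ct of 25 or more. miR-467a and miR-467c were read in both wells of every pool that had a Ct, miR-669o in both wells of its 1 pool, and the other 5 members had at least 1 pool with a single reading.

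**Figure D3:**
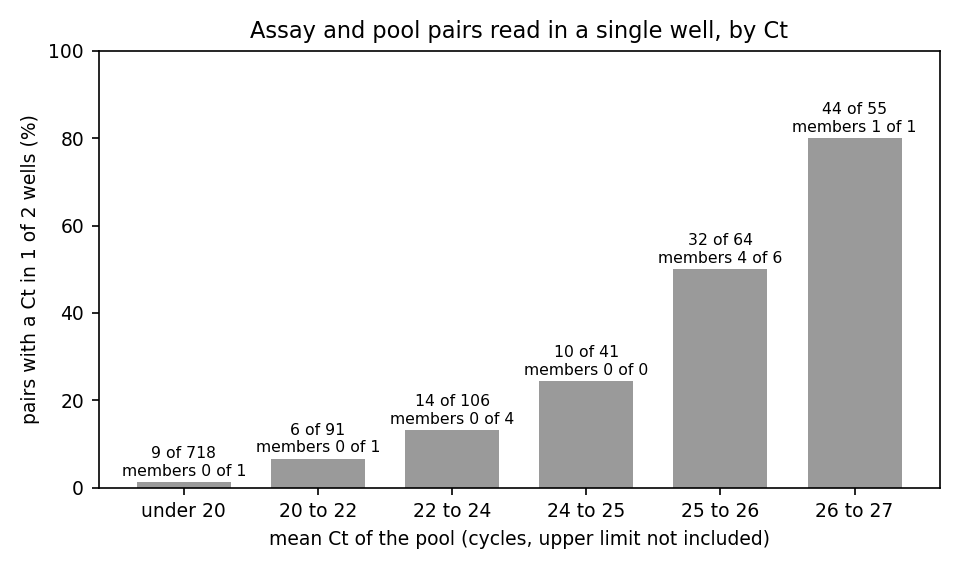
Percent of assay and pool pairs with a Ct in 1 of 2 wells (vertical axis) by the mean Ct of the pair in cycles (horizontal axis), with counts for all miRNA assays and for the members above the bars. The share runs from 1.25% under a Ct of 20 to 80% from 26 to 27.

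miR-467a, to which 10 of the 14 miR-467 genes in the span belong, read higher in arthritic synovium. Whether the change passed a test depended on the normalization. Its panel A assay read 22.34 and 23.26 in the wells of non-arthritic pool 1. In non-arthritic pool 2 it read 22.45 and 23.5. At day 10 the wells of arthritic pool 1 read 18.44 and 18.09, and those of arthritic pool 2 read 21.31 and 20.85. All 4 arthritic wells thus had a lower Ct than all 4 non-arthritic wells, and the arthritic pools lay further apart than the non-arthritic ones. Wells of a pool had an SD of 0.65 and 0.74 cycles before arthritis and of 0.25 and 0.32 cycles at its peak.

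For the comparison the Ct of each assay was subtracted from a reference, the median Ct of the assays read in all 4 pools, per pool and panel, which gave a level on the log2 scale. For panel A the reference median was a Ct of 12.6 and 12.8 at day 0, with 12.5 for arthritic pool 1 and 15.9 for arthritic pool 2. On this scale miR-467a had a level of -10.2 in each day 0 pool, against -5.73 for arthritic pool 1 and -5.18 for arthritic pool 2. The mean went from -10.2 ± 0.0048 to -5.45 ± 0.39 (SD, n = 2 pools each). The day 0 SD lies far below the SD of 0.65 and 0.74 cycles between the wells of those pools, so it does not measure precision. Mean Cts were 18.3 and 21.1 in arthritic pools 1 and 2, so the closeness of their levels came from their differing reference medians. The log2 change was 4.71 ± 0.73 (SE) or 26.2-fold, past the threshold of 0.05 (limma adjusted p = 0.0122 over 209 assays). Of these 209 assays 45 passed, 21.5% in either direction, and 20 or 9.57% were higher in the arthritic pools. Both arthritic pools lay above both non-arthritic pools for 39.2% of the assays tested. The change of miR-467a was the 9th largest rise among the 45, beside a median log2 change of 0.19 over the 209. An exact two-sided permutation test of this single assay gave p = 0.33, the smallest that 2 pools against 2 allow.

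The abundance rank of miR-467a, which a shift shared by a whole panel cannot alter, moved in the same direction. Among the 134 panel A assays read in all pools, with rank 1 the most abundant, it ranked 127 and 126 in the non-arthritic pools. In the arthritic pools it ranked 113 and 107. It stayed in the less abundant part of the panel in every pool. The rank is set against the same assays as the reference median, so it cannot tell a rise of miR-467a from a fall of those assays.

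The size of the rise, and whether it passed, rested on the reference. From the non-arthritic to the arthritic pools the panel A median Ct rose by 1.49 cycles. The Ct of the control RNAs U6 and snoRNA135 changed by -1.36 and -3.12 cycles and that of snoRNA202 by 0.74. U6 read 7.61 and 6.56 in non-arthritic pools 1 and 2, then 5.78 and 5.67 in arthritic pools 1 and 2. In the arthritic pools snoRNA135 read 18.6 and 19.6 and snoRNA202 9.41 and 9.45. No control thus moved between the arthritic pools as far as the panel median did. Relative to U6 alone the log2 change of miR-467a was 1.86 ± 1.80 (SE, limma adjusted p = 0.473). It was 2.02 relative to both snoRNAs (limma adjusted p = 0.287), 1.97 relative to all 3 controls (limma adjusted p = 0.345) and 3.22 on raw Ct (limma adjusted p = 0.193). None of these passed, and relative to U6 alone the groups overlapped, with arthritic pool 2 below non-arthritic pool 1. The controls themselves differed by panel, and on panel B the changes in Ct were -0.10 for U6, -0.15 for snoRNA135 and 2.64 for snoRNA202. With either non-arthritic pool left out the log2 change was 4.71 or 4.76 and did not pass (limma adjusted p = 0.236 and 0.365), the remaining pool being taken to vary like the arthritic ones. Without limma's shared spread it did not pass either (adjusted p = 0.117 from ordinary linear models). In the authors' deposited table, whose normalization the sources used here do not give, the non-arthritic and arthritic averages of miR-467a were 0.653 and 5.11, a log2 difference of 4.45 or 21.9-fold.

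**Figure D4:**
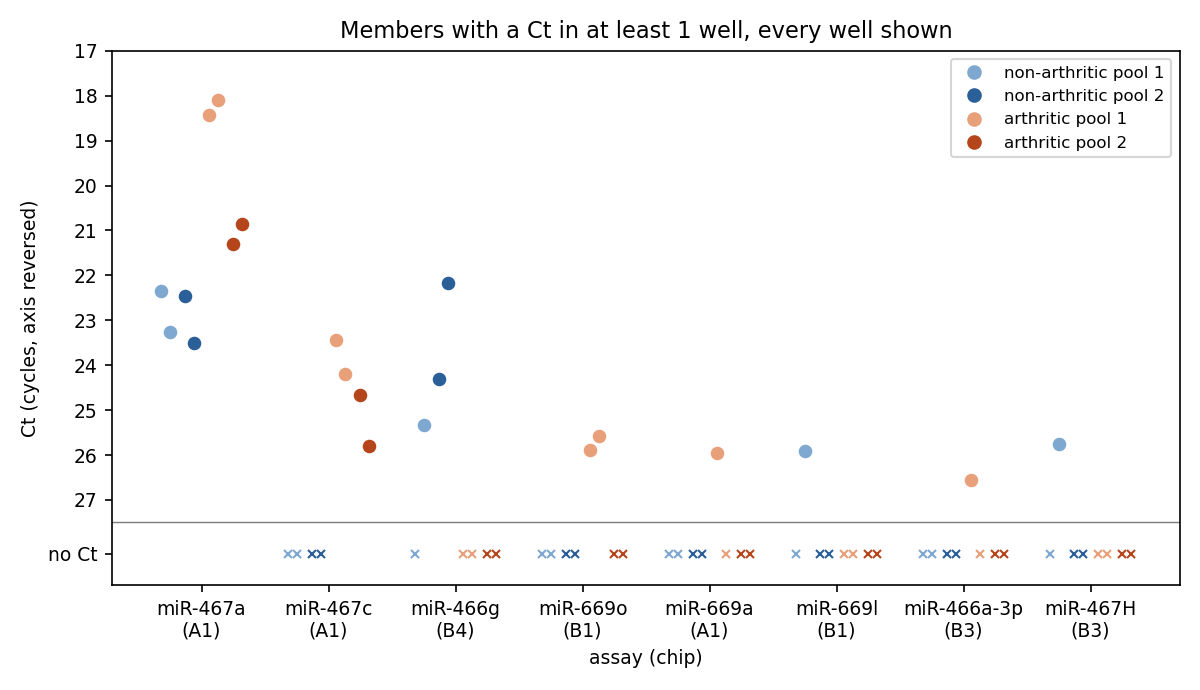
Ct in cycles (vertical axis, reversed so that more RNA is higher) of every well of the 8 members with a Ct (horizontal axis, chip in brackets), coloured by pool. Crosses mark wells without a Ct. The arthritic wells of miR-467a run from 18.09 to 21.31 and lie above its non-arthritic wells, which run from 22.34 to 23.5.

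**Figure D5:**
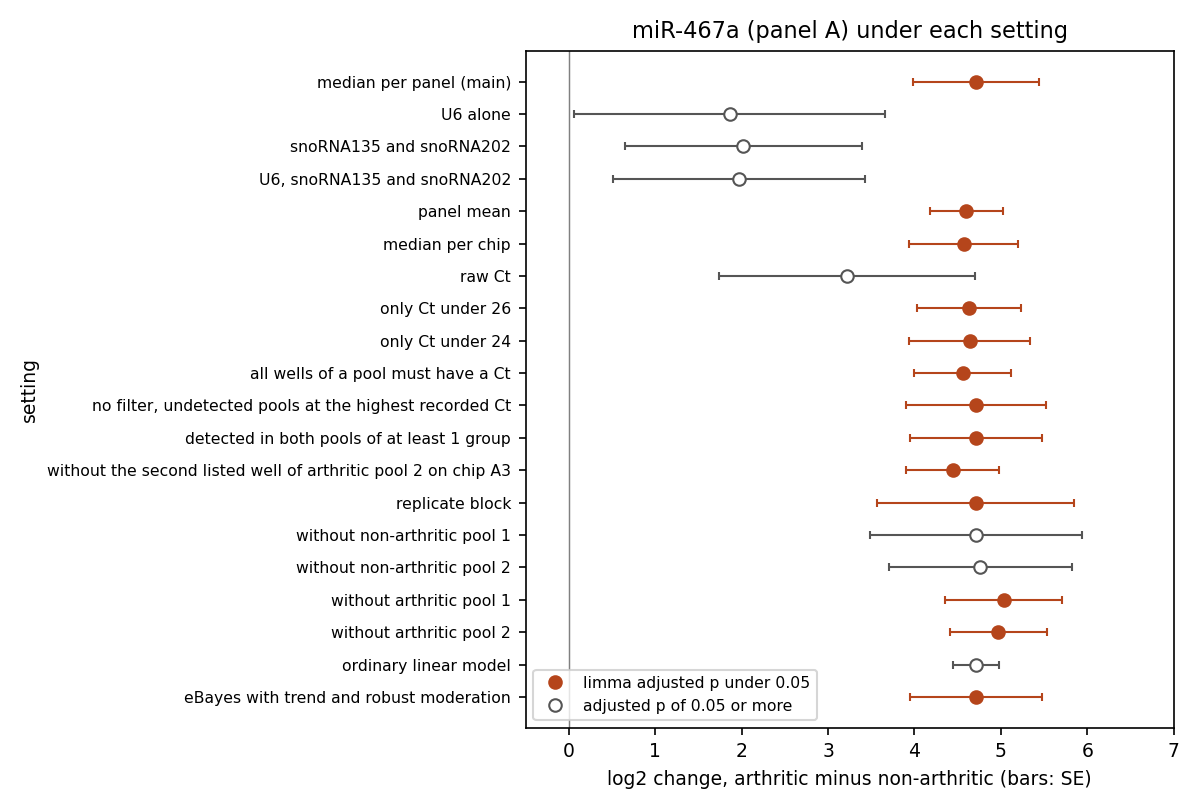
Log2 change of the panel A assay of miR-467a, arthritic minus non-arthritic (horizontal axis, bars are the SE), under each setting (vertical axis). The values run from 1.86 to 5.03, all above 0, and open points did not pass an adjusted p of 0.05.

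miR-467c, encoded in the same cluster and read on the same chip as miR-467a, was recorded in the arthritic pools alone. Its wells read 23.43 and 24.19 in arthritic pool 1. In arthritic pool 2 they read 24.67 and 25.8. None of the 4 non-arthritic wells had a Ct. The groups therefore did not overlap in detection, a pattern shared by 4 of 750 assays or 0.533%. With the non-arthritic wells put at the highest Ct recorded for any miRNA, 26.997, miR-467c was at least 15.7-fold higher (3.97 log2 units) at day 10. The bound assumes that unread wells lay beyond that cycle, and it was 5.56-fold on raw Ct and 2.16-fold relative to U6 alone. Without arthritic pool 1 it was 30.7-fold and without arthritic pool 2 it was 7.99-fold. A fit with all unread pools at that Ct gave 3.97 ± 1.00 (SE) for miR-467c, which did not pass (limma adjusted p = 0.0731). In the authors' deposited table miR-467c had averages of 0 and 1.08 and a difference of 1.08 on the log2 scale, or 2.11-fold. That table has 174 entries, and miR-467a and miR-467c are the 2 members among them.

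Arthritic pool 1 alone gave the readings of 3 further members. miR-669o read 25.88 and 25.58, in both wells. miR-669a, which in mouse heart progenitor cells is known to restrain the muscle regulator MyoD, read 25.96 in 1 well. miR-466a-3p read 26.56 in 1 well. These Cts lie close to the single-copy range, and arthritic pool 2 and both non-arthritic pools had no Ct for any of the 3.

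The opposite pattern was seen for 3 members. miR-466g read 25.32 in 1 well of non-arthritic pool 1 and 24.3 and 22.16 in the wells of non-arthritic pool 2, and had no Ct in an arthritic well. Among all assays, 3.6% were read in each day 0 pool while every arthritic well lacked a Ct. With the arthritic wells put at the highest recorded Ct, miR-466g was at least 1.8-fold higher (0.85 log2 units) at day 0, and a fit on these values did not pass (log2 change -0.85 ± 1.21 SE, limma adjusted p = 0.646). This bound was 7.08-fold relative to U6 alone, 6.6-fold on raw Ct, 3.8-fold relative to all 3 controls and 2.79-fold relative to both snoRNAs. It was 3.86-fold without non-arthritic pool 1 and 3.48-fold without arthritic pool 2. The median per chip gave no bound, nor did leaving out non-arthritic pool 2 or arthritic pool 1. The panel B median Ct, against which this level is set, was 15.5 and 15.6 at day 0, with 16.5 for arthritic pool 1 and 18.4 for arthritic pool 2. miR-669l read 25.92 and miR-467H 25.76, each in 1 well of non-arthritic pool 1. The genes of miR-669o and miR-466g are next to each other in the span, 199 bases apart, and were read in opposite groups. However, miR-669o was read in 1 arthritic pool alone, close to the single-copy range. With unread pools at the highest Ct neither change passed (limma adjusted p = 0.11 for miR-669o and 0.646 for miR-466g). The genes of miR-467c and miR-669l are numbers 13 and 8 in the order along the span.

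The 23 members without a Ct included miR-297b-5p and miR-297c, the whole miR-297 group on the panels. In the miR-466 group these were the rat-named miR-466b and miR-466c and the mouse-named miR-466b-3-3p, miR-466d-5p, miR-466E-5P, miR-466h, miR-466J and miR-466k. miR-466h is known to favour apoptosis in cultured rodent cells. In the miR-467 group they were both assays of miR-467b, known to limit lipoprotein lipase in mouse macrophages, with miR-467d, miR-467e, miR-467F and the panel B assay of miR-467a. In the miR-669 group they were miR-669C, miR-669D, miR-669E, miR-669G, miR-669H-5P, miR-669m and miR-669n. The genes of miR-467d and miR-467e, which flank that of miR-466p in the span, thus had assays that stayed unread.

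miR-467a and miR-467b were each listed on both panels. The panel A assay of miR-467a has the identifier 2587 and was read in 8 of 8 wells, and the panel B assay has the identifier 1826 and was read in 0. For miR-467b the identifiers are 1671 and 1684, and neither was read. The names are the same but the identifiers are not, so that these are different assays, and the files do not say which strand each reads. The star strands of the families on the panels, miR-297a# and miR-467e#, gave no Ct in any of their 16 wells. The negative control, the plant miRNA ath-miR159a, gave none in 8 wells on each panel.

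The tissue was checked through miRNAs known from its cell types. Of 7 fibroblast and mesenchymal assays 6 were read in all 4 pools, among them miR-214 and miR-199b. The summed level of the list (log2 of the sum of the linear levels) ran from 6.84 to 7.10 over the pools. Each level was set against the median of its own panel, so such sums can join levels on unlike references. Of the list miR-143 fell (limma adjusted p under 0.05), with a Ct of 11.3 and 10.7 at day 0 and of 13.8 and 19.4 at day 10. Others also moved within this sum: miR-145 read 6.13 and 5.95 at day 0 and 8.8 and 10.5 at day 10. For miR-214 these were 8.94 and 10.4, then 7.65 and 10.1. The sum thus does not show that each member was steady. The pools also differed in lists of other cell types. The skeletal muscle list had 4 of 4 assays read in the non-arthritic pools and 2 of 4 in the arthritic pools, with miR-1 and miR-133b unread there, and its summed level went from 9.07 and 10.29 to 7.0 and 6.17. The 2 endothelial assays went from 9.12 and 9.51 to 6.68 and 7.21, and lymphoid miR-150 from 7.20 and 8.12 to 5.29 and 6.04. The myeloid list, with 2 of 3 assays read in all pools, went from 4.35 and 4.08 to 5.36 and 6.76. Of the assays on these 4 lists 1 fell, in the muscle list, and 1 rose, myeloid miR-142-3p, at a limma adjusted p under 0.05. Of 6 epithelial assays miR-203 and miR-205 were read in all 4 pools and miR-200a, miR-200b and miR-141 in none, with a summed level from 3.35 to 4.71. Of 3 erythroid assays miR-451 was read in all 4 pools, miR-486 at day 0 alone and miR-144 in none, with a summed level from -0.61 to 1.61. Cartilage miR-140 was read in all 4 pools, with a level of -0.59 and -0.80 at day 0 and of -1.54 and -3.41 at day 10, and was not called. The part of these lists in the values of miR-467a and miR-467c was not tested. In bulk tissue, fewer cells of a type and less RNA per cell cannot be told apart.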

How the data were processed

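The authors deposited raw Ct values of 8 BioMark chips (panels A and B), per the file headers, with 999 where no Ct was recorded, as read from the values. RNA came from a mirVana extraction and TaqMan reverse transcription, per the labels' protocols. No source used here gives the threshold settings. A deposited table of the authors' holds log2 group averages, their difference and a fold (ratio), as read from its values, and served for comparison only.

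Pools were grouped by their labels. A pool counted as read where at least 1 of its 2 wells had a Ct, and wells were averaged. Groups were compared over the 209 assays read in all 4 pools with limma 3.58.1 in R 4.3.3 (two-sided, Benjamini-Hochberg threshold 0.05, controls left out, prior of 4.021 degrees of freedom), and only the families' values are printed. The fit was tested on simulated data. The simulated spread was the same in both groups, so that test does not cover groups of unlike spread. The files have no read depth, and the 2 pools per group limit precision: per assay the median gap between pools was 1.38 log2 units for the arthritic and 0.519 for the non-arthritic group. Alternatives were other references, Ct limits, filters, moderation, the pool number as a block and each pool left out. Every member is named, by rule, and members and lists were chosen with earlier results of these data known. Sequences and gene order came from RefSeq tables (GRCm38.p6), from which no mature strand was taken for 26 of the 31 assays. Plots used matplotlib 3.10.9 and Python 3.11.15.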

Additional observations from a re-analysis of the deposited data

How the results depend on the processing

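The log2 change of miR-467a was above 0 in all 19 alternative settings, between 1.86 and 5.03, and passed in 12 of them. It did not pass, so that 0 members were called in place of 1, with U6 alone (1.86), snoRNA135 and snoRNA202 (2.02), all 3 controls (1.97), raw Ct (3.22) or ordinary linear models (4.71). Leaving out 1 pool at a time gave 4.71 to 5.03 with 0 to 1 members called, the call being lost without either non-arthritic pool. In those fits the spread within groups came from the arthritic pools alone, and whether that is why the call was lost was not tested. Over all assays, limma made 0 calls without either non-arthritic pool, where 42 and 25 assays had an unadjusted p under 0.05, and ordinary linear models made 0, where 55 had. The median change of the members tested was that of miR-467a, except that it was 2.05 over 8 members with unread pools at the highest Ct. With the pool number as a replicate block the change was again 4.71 with 1 member called (limma adjusted p = 0.000434), and 66 assays in all against 45. The labels do not say that the numbers pair the pools, and the deviations of same-numbered pools correlated at 0.074. Members with a Ct in at least 1 pool fell from 8 to 3 with a Ct limit of 24 and to 4 where both wells had to be read. The bound of miR-466g, as a log2 change of -0.85, was -2.82 with U6 alone, -2.72 on raw Ct and -0.41 with the panel mean. It became 1.03 with the median per chip, which leaves no bound. Leaving out 1 pool, an alternative chosen after seeing the data, gave -1.95 to 0.25 for miR-466g, with 0.10 without arthritic pool 1, and 3.00 to 4.94 for miR-467c. Only the panel A assay of miR-467a was read in all 4 pools, which limits what can be said of the other members. Why they lacked a Ct was not tested.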
